A study of Mus musculus with 3 samples.

Results

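Toll-like receptors are the sensors by which cells of innate immunity recognize microbial molecules and molecules released from injured tissue. The 10 genes described here are Tlr1 to Tlr9 and Tlr13, and every non-control probe that carries one of these names on the array was taken. This gave 14 probes of 10 genes, of 55679 probes with 34796 gene names on the array. The genes fall into 5 receptors of the cell surface (Tlr1, Tlr2, Tlr4, Tlr5 and Tlr6) and 5 receptors of the endosome (Tlr3, Tlr7, Tlr8, Tlr9 and Tlr13), and they were followed over 3 spleens that carried islet grafts.

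The recipients were C57BL/6J mice made diabetic with streptozotocin (STZ), a toxin of beta cells, and the islets were syngeneic, so donor and recipient were genetically alike. By the treatment protocol, each mouse received 25 islets in the spleen together with 100 beneath the kidney capsule, although the characteristics of the samples name the capsular graft for the last time point alone. The spleen was taken right after transplantation (day 0), on day 2, or on day 139 from mice whose graft-bearing kidney had been removed on day 100. Day 139 thus differs from days 0 and 2 at least in time after grafting, in time after STZ and in the nephrectomy. The mice also aged between grafting and day 139. Blood glucose can differ as well, since the paper reports that diabetic recipients of this combined graft became normoglycemic, but it gives no glucose values for these samples. These factors cannot be told apart with the arrays at hand. How many mice gave RNA to an array is not stated in the sources used here. The labels give no age for any sample, and the study's methods give only a general range of ages for its mice, not tied to these samples. A spleen that had received no islets was not analysed here.

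Receptors of the cell surface bind lipids and proteins of microbes. Tlr2 pairs with Tlr1 or Tlr6 to bind bacterial lipopeptides, Tlr4 binds lipopolysaccharide with its partner Ly96 (MD-2), and Tlr5 binds flagellin. The endosomal receptors bind nucleic acids: Tlr3 double-stranded RNA, Tlr7 and Tlr8 single-stranded RNA and its breakdown products, Tlr9 unmethylated CpG DNA, and mouse Tlr13 bacterial ribosomal RNA. All but Tlr3 signal through the adaptor Myd88, Tlr3 signals through Ticam1 (TRIF), and Tlr4 uses both. These routes activate NF-kB, AP-1 and interferon regulatory factors, which turn on genes of cytokines and type I interferons. In the spleen the receptors are carried by macrophages, monocytes, neutrophils, dendritic cells and B cells in different combinations.

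Each array was a 1-color design with probes of 60 bases, and each probe reads a short stretch of 1 transcript. The probes are shown where their letters bear on the measurement. Tlr1 and Tlr2 are related genes with 1 probe each, and the letters of these probes were compared with each other. Neither probe was searched against the transcript of the other gene, so binding to both transcripts was not tested. The probe of Tlr6 was not compared. Only unbroken stretches were compared, and bases beside them that match with mismatches between were not counted, although the probes do have such bases. The longest unbroken stretch that the probes share was 7 bases, in capitals in the following sequences (mm9 build, both on the minus strand, chr5:65316115-65316174 and chr3:83640344-83640403).
Tlr1: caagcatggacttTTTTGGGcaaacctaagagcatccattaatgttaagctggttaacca
Tlr2: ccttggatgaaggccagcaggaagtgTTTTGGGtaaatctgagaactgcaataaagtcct

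The probes of Tlr3, Tlr7 and Tlr13 lie where the transcript carries AATAAA, the letters of the common polyadenylation signal, set in capitals in 30 bases of each probe (mm9, chr8:46481744-46481773 on the minus strand, chrX:163742866-163742895 on the minus strand and chrX:103355798-103355827 on the plus strand). These letters were in 4 of the 14 probes (28.6%, the Tlr2 probe included), against 10.1% of the 55681 probes of the array design. Whether a probe lies in an untranslated region or in coding sequence was not annotated here.
Tlr3: agacgtttatagAATAAAagataattgctt
Tlr7: agagttcaatgaAATAAAagcccagagaac
Tlr13: gtaagtaaccccAATAAAactcattggttc

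Tlr8 was read by a pair of probes at different places of its transcript, which did not give the same ratios. The parts of these probes around their longest shared stretch, of 5 bases in capitals, are shown (mm9, minus strand, chrX:163683384-163683413 for the brighter probe and chrX:163680656-163680685 for the other).
Tlr8 brighter probe: agttttactgctGGAAGacaaccagttata
Tlr8 other probe: tgatgGGAAGtcacgactctgccatcataa

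Signals are given on a linear scale after quantile normalization, which gives the 3 arrays the same distribution of signals, and the error beside a signal is the scanner software's own estimate for the spot. There was 1 array per day. The data therefore allow no test, the error covers neither labeling nor differences between mice, and the 3 comparisons share their arrays. Well above background were 54.4%, 53.8% and 50.4% of the probes on days 0, 2 and 139, 0 of these probes were saturated, and all arrays were on 1 slide. A gene was called higher or lower at a ratio of 1.5 or its inverse, by its brightest probe, and log2 ratios are set against the scanner error of the ratio. RNA of a whole spleen cannot tell fewer cells of a type from less RNA per cell.

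Across the receptors no ratio between days reached 2 in either direction under quantile normalization. Of the 10 genes, 9 were well above background on all 3 arrays, and Tlr5 was not so on any. The signals of Tlr2, Tlr4, Tlr6, Tlr8 and Tlr13 were lower on day 2 and on day 139 than on day 0 by more than the scanner error, by the brightest probe of each. Tlr1, Tlr3 and Tlr7 were higher on day 139 than on both earlier days by more than that error, and Tlr9 was highest on day 2. The day 139 part of this depended on the normalization. With scaling by spike-in controls, described below, Tlr2, Tlr4, Tlr6 and Tlr8 were between -0.10 and 0.05 on the log2 scale over day 0, within the error. Tlr13 stayed lower, at -0.45, and Tlr9 was at 0.08 for day 139 over day 2.

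**Figure D1:**
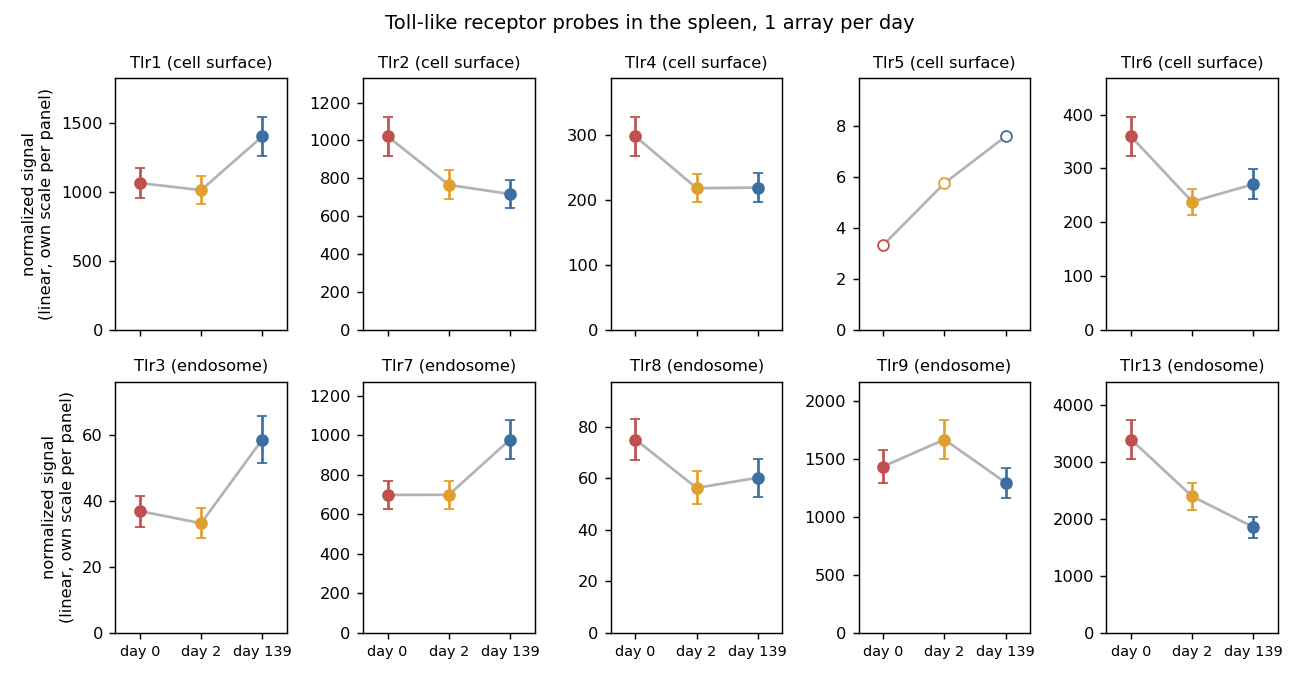
Normalized signal (linear axis, own scale in each panel) of the brightest probe of each receptor on days 0, 2 and 139, with the scanner software's error as bars, 1 array per day, and open points without bars for Tlr5, which was not well above background. Tlr13 goes from 3391 to 2393 and 1854, while Tlr1 is at 1065, 1013 and 1403.

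Tlr2, the common partner of the lipopeptide receptors, had the most repeated measurement, since its probe occupied 10 spots on each array. Its normalized signal was 1021 ± 102 on day 0, 765 ± 76.6 on day 2 and 717 ± 71.8 on day 139. The signal of day 2 was thus 74.9% and that of day 139 70.2% of the signal of day 0. The spots give a direct view of the error within an array. Before normalization, the 8 spots used on day 0 lay between 1019 and 1099 (1065 ± 29.1, SD), the 9 used on day 2 between 736 and 886 (800.2 ± 58.0), and the 10 of day 139 between 616 and 689 (650 ± 27.0). The spots of the 3 arrays did not overlap. Spots marked as outliers by the software were left out, at 899 and 1116 on day 0 and at 381 on day 2. After normalization days 2 and 139 differed by -0.09 on the log2 scale, within the scanner error of 0.20. In the authors' own normalized values, Tlr2 was at 1009, 708 and 716.

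**Figure D2:**
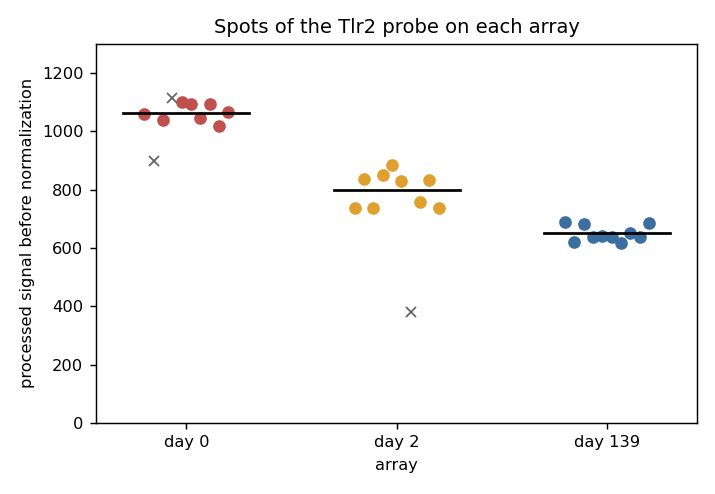
Processed signal before normalization (linear axis) of each of the 10 spots of the Tlr2 probe on the 3 arrays, with crosses for spots left out as outliers and lines at the means of the spots used. The spots used lie between 1019 and 1099 on day 0, between 736 and 886 on day 2 and between 616 and 689 on day 139.

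The partners of Tlr2 differed in direction. Tlr1, which pairs with Tlr2 for triacylated lipopeptides, had signals of 1065 ± 106 on day 0, 1013 ± 101 on day 2 and 1403 ± 140 on day 139. Days 0 and 2 differed within the error (log2 ratio -0.07), and its signal was 1.32-fold that of day 0 on day 139. Tlr6, which pairs with Tlr2 for diacylated lipopeptides, had signals of 360 ± 36.1, 238 ± 24.0 and 271 ± 27.4 on days 0, 2 and 139. Its day 2 signal, at 66.2% of day 0, was the only one among the receptors called lower in that comparison. Its probe (mm9, chr5:65344365-65344424, minus strand) lies near that of Tlr1 on the same chromosome and strand. Between days 2 and 139, Tlr6 differed by 0.19 on the log2 scale, within an error of 0.21.

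Tlr4, the lipopolysaccharide receptor, was read by a probe with 2 spots per array (mm9, chr4:66503470-66503529, plus strand). Its normalized signal was 298 ± 30.02 on day 0, 219 ± 22.1 on day 2 and 219 ± 22.3 on day 139. Both later days were lower than day 0, at 73.2% and 73.5%, and differed from each other by 0.01 on the log2 scale, within the error. Before normalization its spots were at 303 and 319 on day 0, 214 and 243 on day 2, and 192 and 204 on day 139, and those of day 0 did not overlap those of the later days. A second Tlr4 probe (chr4:66590077-66590136) was not well above background on any array. The flagellin receptor Tlr5 had 1 probe (chr1:184906031-184906090, plus strand), with signals of 3.32, 5.74 and 7.58, and since it was not well above background on any array no ratio is given.

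Among the endosomal receptors, Tlr13 showed the lowest ratio of all members. Its signal was 3391 ± 339 on day 0, 2393 ± 239 on day 2 and 1854 ± 185 on day 139. On day 2 it was at 70.6% of day 0 and on day 139 at 54.7%, with log2 ratios of -0.50 and -0.87 against an error of 0.20. It was also lower on day 139 than on day 2 (log2 ratio -0.37), so under quantile normalization the order of the days was the same in each step. Tlr13 was the only receptor with this order by more than the error in each comparison under that normalization. With scaling by spike-in controls, described below, its log2 ratio of day 139 over day 2 was 0.08.

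Tlr3 and Tlr7, receptors of double- and single-stranded RNA, were highest on day 139. Tlr3 had signals of 36.9 ± 4.71 on day 0, 33.2 ± 4.47 on day 2 and 58.6 ± 7.07 on day 139, so that day 139 was 1.59-fold day 0 and 1.76-fold day 2. These were dim spots. The lowest normalized signal well above background was 12.9, 14.0 and 18.2 on the 3 arrays. With normexp, a background correction used with a constant of 50 added to every signal, which weighs most on dim ones, the log2 ratios of Tlr3 on day 139 were 0.27 over day 0 and 0.36 over day 2, in place of 0.67 and 0.82, and Tlr3 was no longer called higher. Tlr7, by its brightest probe, was at 698 ± 69.8 on day 0, 698 ± 69.9 on day 2 and 978 ± 97.9 on day 139. A second Tlr7 probe (mm9, chrX:163743146-163743205) gave 493, 424 and 612. Both probes of Tlr7 were highest on day 139, with 1.40-fold and 1.24-fold the signal of day 0, and the remaining probe was not well above background on any array.

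Tlr8 gave no single answer. By the brighter probe its signals were 75.1 ± 8.07, 56.3 ± 6.39 and 60.3 ± 7.40 on days 0, 2 and 139. By the other probe they were 43.4 ± 5.64, 43.4 ± 5.57 and 26.5 ± 5.19. The brighter probe was thus lower on day 2 (log2 ratio -0.42) where the other was level (-0.00), and on day 139 the log2 ratios over day 0 were -0.32 and -0.71. Both probes had a lower signal on day 139 than on day 0. Tlr9, the receptor of CpG DNA (mm9, chr9:106128979-106129038, plus strand), was at 1438 ± 144 on day 0, 1671 ± 167 on day 2 and 1299 ± 130 on day 139. Day 2 was 1.16-fold day 0, a log2 difference of 0.22 against an error of 0.20, and day 139 was at 77.7% of day 2.

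**Figure D3:**
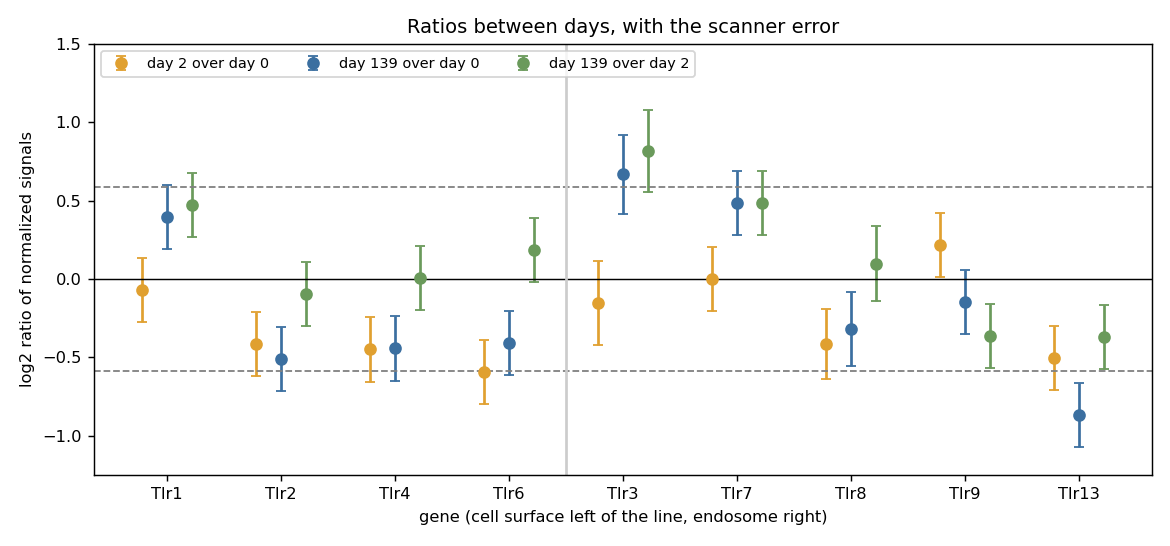
Log2 ratio of the normalized signals in each comparison for the brightest probe of the 9 measured receptors, with the scanner error of the ratio as bars and dashed lines at a ratio of 1.5 and its inverse. Tlr13 has the lowest ratio (-0.87 for day 139 over day 0) and Tlr3 the highest (0.82 for day 139 over day 2).

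Counted over the 9 measured receptors, few passed the fold of 1.5. For day 2 over day 0, 0 receptors were higher and 1 was lower (Tlr6), while 8.79% of the 22460 genes measured on these arrays were higher and 8.89% lower. For day 139 over day 0, 1 was higher (Tlr3) and 1 lower (Tlr13), against 13.2% and 11.4% of all genes. For day 139 over day 2, 1 was higher (Tlr3) and 0 were lower, against 12.3% and 11.4%. With a Z-score limit of 2 added, which sets a ratio against probes of like signal, 0 receptors passed in any comparison. Of all genes, 2.24% were then higher and 2.92% lower on day 2 over day 0, 3.07% and 2.5% on day 139 over day 0, and 2.88% and 2.0% on day 139 over day 2.

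By the scanner error alone, 5 receptors were lower and 1 was higher on day 2 than on day 0, when 24.0% of all genes were lower and 28.1% higher by their own error. On day 139, 5 were lower and 3 higher than on day 0, with 27.5% and 29.6% of all genes. Between days 139 and 2, 2 were lower on day 139 (Tlr9 and Tlr13) and 3 higher (Tlr1, Tlr3 and Tlr7), with 29.9% and 28.3%. The median log2 ratio of the receptors was -0.42 for day 2 over day 0 and -0.32 for day 139 over day 0, where the medians of all genes were 0.02 and -0.00. It was 0.10 for day 139 over day 2, with -0.03 for all genes. These medians depended on the setting. For day 2 over day 0 the receptor median was -0.24 with normexp and -0.21 with the median of a gene's probes, and under spike-in scaling the day 139 medians were 0.05 over day 0 and 0.53 over day 2. By location, the surface receptors had medians of -0.43 and -0.43 over day 0, and the endosomal receptors of -0.15 and -0.15.

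The day 139 values depended on how the arrays were scaled. The spike-in controls, RNAs added in equal amounts to each labeling, were dimmer on day 139, at 0.656 of their signal on day 0, and at 1.04 on day 2. Scaling by them in place of quantile normalization moved the median of all genes for day 139 over day 0 from -0.00 to 0.40 on the log2 scale. Tlr13 was then at -0.45, below day 0, and Tlr3, Tlr7 and Tlr1 at 1.01, 0.88 and 0.81. Tlr2, Tlr4 and Tlr6 were at -0.10, -0.04 and -0.01, and the sign turned for Tlr8 (0.05) and Tlr9 (0.27). Relative to the median of all genes, each of Tlr2, Tlr4, Tlr6, Tlr8, Tlr9 and Tlr13 stayed low and each of Tlr1, Tlr3 and Tlr7 high. With this scaling 32.3% of all genes were called higher and 4.57% lower, in place of 13.2% and 11.4%. For day 139 over day 2 the median of all genes was 0.42, 34.4% of genes were higher and 3.39% lower, and the sign turned for Tlr2 (0.36), Tlr9 (0.08) and Tlr13 (0.08). For day 2 over day 0 the median of all genes was -0.02, and no receptor changed sign beyond its error.

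**Figure D4:**
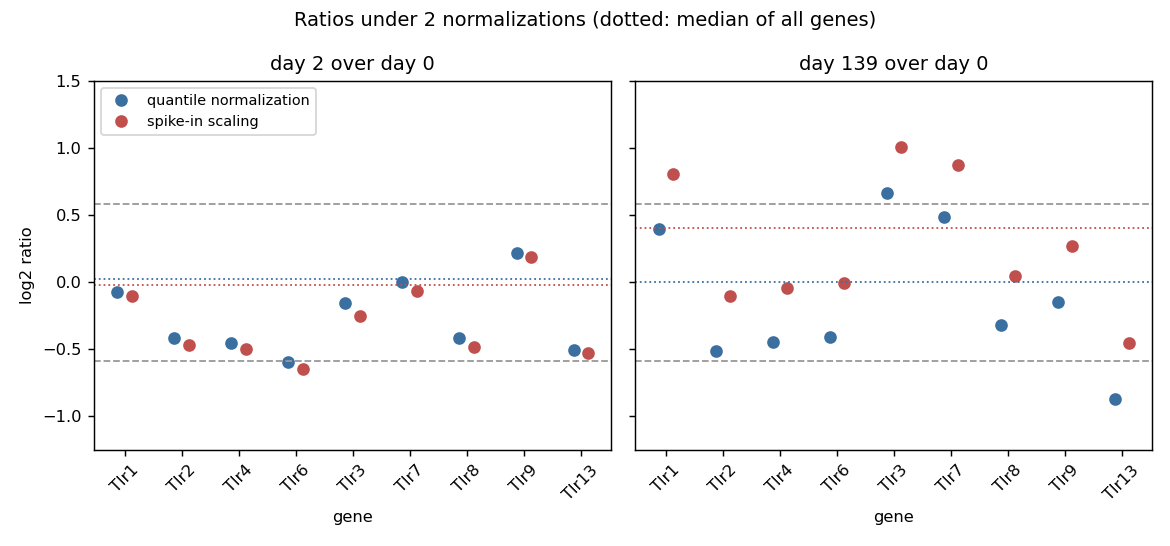
Log2 ratio of the 9 measured receptors on day 2 and on day 139 over day 0, under quantile normalization and under spike-in scaling, with the median of all genes as dotted lines and a ratio of 1.5 and its inverse as dashed lines. For day 139 over day 0 that median lies at -0.00 and 0.40, and Tlr13 at -0.87 and -0.45.

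Some partners of the surface receptors had ratios farther from 1 than any receptor, and others were level. Cd14, which hands lipopolysaccharide to Tlr4, had signals of 3527, 1295 and 577 on days 0, 2 and 139, so that day 2 was at 36.7% and day 139 at 16.4% of day 0. Lbp, which carries lipopolysaccharide to Cd14, was at 103, 68.3 and 43.5. Ly96, which binds lipopolysaccharide within the receptor complex, was at 386, 359 and 397 and was called in no comparison. Cd180, a receptor of B cells that resembles Tlr4, was at 80.9, 88.7 and 139, and its partner Ly86 at 11504, 9679 and 12204. Msr1, a scavenger receptor, was at 377, 253 and 66.5, and Rftn1 (raftlin) at 2663, 2559 and 4945. Cd36, which presents lipids to Tlr2 with Tlr6, was at 1034, 1347 and 968. Among the measured receptor accessories, 0 of 11 were higher and 2 lower on day 2 than on day 0, and 2 of 10 higher and 3 lower on day 139 than on day 0. The counts of this list and of those that follow stand beside the shares of all genes. These were 8.79% higher and 8.89% lower on day 2 over day 0, and 13.2% and 11.4% on day 139 over day 0.

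Endosomal receptors must be carried from the endoplasmic reticulum and cut by proteases before they signal. Unc93b1, the chaperone that moves them, had signals of 6063, 7050 and 11299, and day 139 was 1.86-fold day 0 and 1.60-fold day 2. Pld4, an exonuclease that degrades the DNA and RNA ligands of the endosome, was at 967, 1596 and 1536, higher on both later days than on day 0. Cnpy3, a folding partner of several receptors, was at 1477, 1744 and 1829, called in no comparison. Of 15 genes of trafficking and processing, 2 were higher and 0 lower in each comparison with day 0. Of all genes, 8.79% were higher on day 2 and 13.2% on day 139 over day 0, so these counts do not set the list apart.

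Of the adaptors, Myd88 was lower on both later days, with signals of 2983, 1777 and 1633, or 59.6% and 54.7% of day 0. Tirap, which links Myd88 to Tlr2 and Tlr4, was at 324, 233 and 249, and Ticam1 at 462, 510 and 493. Neither of these was called, and Ticam2 was not well above background. The kinases Irak1, Irak4 and Irak2, which follow Myd88, were called in no comparison. Irak1 had signals of 1044, 1020 and 1266, Irak4 128, 119 and 124, and Irak2 4913, 5658 and 6247. On day 139 they were at 1.21-fold, 0.97-fold and 1.27-fold day 0. The ubiquitin ligase Traf6 was at 481, 485 and 430. Of the 20 kinases and ligases, 3 were lower on day 2 than on day 0 (Tab2, Tbk1 and Map3k8), 0 were higher, and on day 139 over day 0 only Ikbke was called, as higher.

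Among the transcription factors, Fos, a subunit of AP-1, was at 346, 204 and 183, the only 1 of 12 called lower on day 2 and on day 139 over day 0. Irf8, a factor of monocytes, dendritic cells and B cells, was at 9936, 9043 and 15366 and was the only one called higher on day 139 than on day 0. Irf7, which acts downstream of Tlr7 and Tlr9, was at 865, 670 and 742. Of 16 negative regulators, 0 were called on day 2 over day 0, and on day 139 over day 0 Cyld, Nlrc5 and Pdlim2 were higher and Dusp1 and Il1rl1 lower. Irak3, which holds Irak1 and Irak4 back, was at 271, 197 and 298. The NF-kB inhibitors Nfkbia (13407, 12430 and 13298) and Tnfaip3 (1280, 1041 and 1266) were called in no comparison.

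The cytokine genes that these routes can turn on had the medians farthest from 0 of the pathway lists over day 0. Of 13 measured, 11 were lower and 0 higher on day 2 than on day 0, with a median log2 ratio of -1.02, and on day 139 8 were lower and 1 higher, with a median of -1.51. The chemokine gene Ccl2 was at 1957, 1007 and 151, and Tnf at 166, 82.1 and 191, lower on day 2 only. Il6 was at 841, 50.9 and 40.4, or 6.06% and 4.80% of day 0. Il10, whose product dampens inflammation, was at 31.1, 19.1 and 55.4 and was the gene called higher on day 139 over day 0. The signals of Il10 were dim, and the lowest normalized signal well above background on day 2 was 14.0. Cxcl2, which draws neutrophils, was at 257 on day 0 and 38.9 on day 2, and was not well above background on day 139. Of 9 measured interferon outputs, 0 were called in either comparison with day 0, and Ifnb1 was not well above background on any array. The interferon-induced Cxcl10 was at 1274, 1752 and 1613, and Mx1 at 398, 268 and 409.

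Genes of the host listed as possible endogenous ligands of the receptors were called in both directions. The list came from general knowledge, and whether each product on it, such as that of Lcn2, binds a receptor was not checked. Of 13 measured, 2 were higher and 4 lower on day 2 than on day 0, and of 14 on day 139, 1 was higher and 7 were lower, with a median log2 ratio of -0.59 over day 0. S100a8 and S100a9, proteins of neutrophils and monocytes that bind Tlr4, were at 53944, 11605 and 15540 and at 147009, 51357 and 58589, and both were called lower on the later days than on day 0. Hmgb1, a nuclear protein released by damaged cells, was at 12585, 15156 and 9207 and was lower on day 139 than on day 2. Saa3, an acute phase protein, had the lowest ratio of the list on day 139, at 5.14% of day 0. Fn1 (fibronectin) was at 13468, 17755 and 4857, and Lcn2, an iron-binding protein of neutrophils, at 9597, 2346 and 1739, both lower on day 139 than on day 0. Bgn, a matrix proteoglycan that binds Tlr2 and Tlr4, was at 443, 847 and 662, higher on day 2 than on day 0. Over all 112 measured genes of the pathway lists, 3.57% were higher and 19.6% lower on day 2 than on day 0, against 8.79% and 8.89% of all genes. On day 139 over day 0 the shares were 9.82% and 19.6%, against 13.2% and 11.4%. Of the 22 pathway genes lower in each comparison, 11 on day 2 and 8 on day 139 were cytokine outputs. The median log2 ratios of the 112 pathway genes were -0.07 and -0.04, nearer to 0 than those of the receptors.

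**Figure D5:**
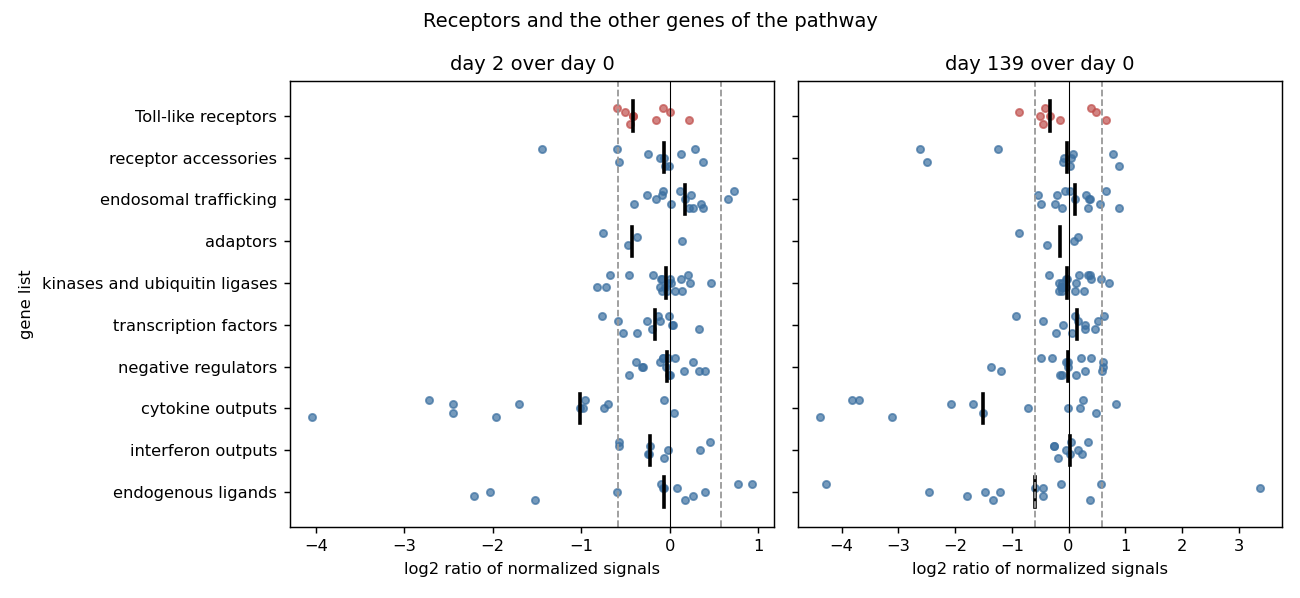
Log2 ratio of normalized signals for the receptors and for each list of other pathway genes on day 2 and on day 139 over day 0, with 1 point per gene (bounds included), a bar at each median and dashed lines at a ratio of 1.5 and its inverse. The cytokine outputs have medians of -1.02 and -1.51 over day 0, against -0.42 and -0.32 for the receptors.

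Markers of the cells that carry the receptors moved between the arrays too, and their part in the receptor values was not tested. The summed signal of 13 neutrophil markers was 270026 on day 0, 119270 on day 2 and 125124 on day 139, and 6 of the 13 were lower on each later day than on day 0. The list went both ways, with 5 markers above day 0 on day 2 and 6 on day 139, when Camp was called higher (1.64-fold). The sum was led by S100a8 and S100a9. Without this pair, left out after the values were seen, the sums of the other 11 were 69073, 56308 and 50995. For 7 monocyte markers the sums were 172495, 119637 and 128408, with 2 lower and 1 higher on day 2 and 3 lower and 1 higher on day 139. For 10 red pulp macrophage markers they were 114384, 93171 and 95395, with median log2 ratios over day 0 of 0.05 and -0.01. All markers of these 3 lists were measured. These sums were highest on day 0, as were the signals of Tlr2, Tlr4, Tlr6 and Tlr13, but a sum is led by its brightest markers. Of the red pulp macrophage markers, 5 were above day 0 and 5 below on day 2, and likewise on day 139. On day 2, Emr1 and C1qa were called higher and Spic and Hmox1 lower. Hmox1, at 35150, 11015 and 16617, was among the brightest of that list.

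The B cell and T cell lists had another course, and all of their markers were measured. The sums of 9 B cell markers were 48675, 48309 and 90557, and 7 were higher on day 139 than on day 0, with a median log2 ratio of 1.05. The sums of 9 T cell markers were 10395, 13358 and 18738, with 8 higher on day 139. The sums of 7 NK cell markers, all measured, were instead highest on day 0, at 14067, 10005 and 8849, with 3 lower on day 2 and 2 on day 139 and median log2 ratios over day 0 of -0.57 and -0.35. For 8 conventional dendritic cell markers the sums were 8383, 7891 and 9778, and 1 was higher on day 139. For the plasmacytoid dendritic cell, which relies on Tlr7 and Tlr9, the sums of 7 measured markers were 86464, 83756 and 81178. They were led by Siglech, at 76280, 72623 and 64935. On day 139, 5 of the markers were above day 0 and 2 below, with a median log2 ratio of 0.36. Of these, 1 (Spib, which B cells also express) was called higher. Runx2, the eighth on this list, was not well above background. The B cell, T cell and conventional dendritic cell sums were highest on day 139, as were the signals of Tlr1, Tlr3 and Tlr7. The signal of Tlr9, also a receptor of B cells, was highest on day 2.

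Genes of the same course were sought within the pathway lists by the root mean square difference of the 3 log2 signals, each centred on its own mean. The nearest to Tlr1 was Ikbkb (0.01), to Tlr2 Lgmn (0.01), to Tlr3 Irf8 (0.02), to Tlr6 Jun (0.02), to Tlr7 Ccl5 (0.02) and to Tlr9 Tab1 (0.01). With 3 arrays such likeness is common. Of 19807 other genes, between 11 (for Tlr1) and 390 (for Tlr13, whose nearest gene was Fos at 0.11) were as close as the gene named.

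The promoters of 8 of the 10 receptor genes, from 250 bases before to 50 after the start in RefSeq on GRCm38.p6, were searched on both strands for sites of factors that act in this pathway. They are shown because NF-kB and AP-1 lie downstream of the receptors. A match describes the letters of the window and is no evidence of binding. The palindromic NF-kB site, GGGAA followed directly by TTCCC, was in 0.0396% of 32851 promoters, and among the receptors in Tlr2 (chr3:83841761-83841790, minus strand). A looser form of it, GGG and TTTCC parted by any 2 bases, was in 1.63% of promoters and in Tlr3 (chr8:45410572-45410601, minus strand). The AP-1 letters TGANTCA, in 7.81%, were in Tlr9 (chr9:106222529-106222558, plus strand). The interferon response element, GAAA and GAAA parted by any 2 bases, was in 3.44% and in Tlr6 as 2 overlapping matches on the opposite strand, the first of which is shown (chr5:64959263-64959292, minus strand). The PU.1 letters GAGGAAGT, in 3.20%, were in Tlr1 (chr5:64933563-64933592, minus strand) and Tlr9. The shorter ETS core GGAAGT, which these contain, was in 23.8% of promoters and in Tlr1, Tlr2, Tlr6 and Tlr9. The matched letters are in capitals.
Tlr2: aggacacctgGGGAATTCCCacacggagcc
Tlr3: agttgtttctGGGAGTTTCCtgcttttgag
Tlr9: caaatgatgtgTGACTCAttgtaccacctg
Tlr6: tgactattctTTTCTCTTTCactttctgtt
Tlr1: attaaatgttgGAGGAAGTaggagcttgaa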

How the data were processed

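The authors deposited the scanner output of 3 arrays as intensity values per spot, which Feature Extraction had background-subtracted (version 10.7.1.1 per the file headers, 9.5.1.1 in the submitters' processing notes), and a table of normalized intensity values, used here as an alternative. Control and outlier spots were left out, the mean was taken over spots of a probe, and quantile normalization, the method of the study, was applied to the 55679 probes with a floor of 1. A probe well above background on 1 array of a comparison alone has a bound as its ratio. The Z-score divides a log2 ratio by the SD of the 1000 probes nearest in signal. Every probe of the members was described, and for each pathway list the genes with the most extreme ratios or of a set list were candidates for naming. Members, lists and rules were chosen with earlier results of these data known, the lists from general knowledge. The calls were tested on simulated data. Python 3.11.15, numpy 2.4.6, pandas 2.3.3, and limma 3.58.1 in R 4.3.3 were used. The 11 alternatives covered background correction, scaling, filters, floor, thresholds and choice of probe. Positions of probes came from the annotation of the array (mm9). The number of arrays limits the precision.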

Additional observations from a re-analysis of the deposited data

How the results depend on the processing

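No paired analysis was possible because each day had 1 array. Of the 11 alternatives, 75th percentile scaling, the authors' values, a floor at the dimmest detected signal, a filter on all 3 arrays, outlier spots kept and the median of a gene's probes left each count of receptors called higher or lower as it was. A fold of 2, and likewise the Z-score limit, left 0 receptors higher on day 139 over day 0 and over day 2, and 0 lower on day 2 or on day 139 over day 0. A normexp correction left 0 higher on day 139 over day 0 and over day 2 and 0 lower on day 2 over day 0, where Tlr6 was at -0.46 on the log2 scale. Spike-in scaling gave 3 higher (Tlr1, Tlr3 and Tlr7) and 0 lower for day 139 over day 0, and 4 higher (Tlr1, Tlr3, Tlr6 and Tlr7) for day 139 over day 2. Without a detection filter, Tlr5 added 1 higher on day 2 over day 0, and 2 were higher on day 139 over day 0 (Tlr3 and Tlr5). Among log2 ratios of single probes, 239 moved by less and 25 by more than the scanner error under an alternative, 21 of the latter under spike-in scaling and 4 under the normexp correction. Medians of the receptor, pathway and marker lists moved by at least 0.2 on the log2 scale in 59 cases and by less in 535, and 44 of the 59 were under spike-in scaling, which moved each list median that involves day 139. Over day 0, the median on day 139 was then -1.10 for the cytokine outputs, -0.21 for the endogenous ligands, 0.25 for the adaptors, 0.16 for the neutrophil, 0.12 for the monocyte, 0.40 for the red pulp macrophage, 0.04 for the NK cell and 1.45 for the B cell markers. Tlr3 and Tlr8 are dim, and their ratios are the least precise. The cause of these differences was not tested.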

Other observations

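The array also carries Tlr11 and Tlr12, receptors of the protozoan protein profilin, which were looked at after the other values were seen. Tlr11 had normalized signals of 201, 184 and 153 on days 0, 2 and 139. Tlr12 had signals of 742, 1392 and 1467, so that day 2 was 1.88-fold and day 139 1.98-fold day 0, a larger ratio under quantile normalization than that of any of the 9 measured receptors described above. No explanation was tested.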
